A study of Canis lupus familiaris with 3 samples.

Results

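ZEB1, TWIST1, SNAI1, KLF8 and GATA6 encode transcription factors that have been linked to the epithelial to mesenchymal transition, and their transcripts were followed in dog kidney epithelial cells labelled as transfected with E47. The 5 genes were taken by name: a spot belonged to the set if the platform annotation gave it exactly 1 gene symbol and that symbol was one of the 5. This found 5 of 6043 annotated genes and 10 of 27648 spots, namely 1 human cDNA clone for each gene, printed as 2 adjacent spots. MDCK is an epithelial line from dog kidney. MDCK-E47 transfectants, in RNA extractions numbered 1 and 2, were compared with MDCK-CMV control cells, and both kinds of cell were grown in the same medium. E47 is a basic helix-loop-helix protein made from the TCF3 gene. TCF3 itself was not higher in the cells labelled E47: it read −0.27, −0.28 and −0.35 on the 3 arrays (log2 ratio of E47 over control), with an adjusted p of 0.118 in limma, and both of its clones were below 0 on every array. The introduced E47 transcript is thus not seen in these ratios, and whether the clones could bind it is not known here, so "E47 cells" below means the cells so labelled. The labels do not describe the construct, how many clones of transfected cells there were, or whether the extractions came from separate cultures, so the p-values measure the spread between these extractions, which may be technical.

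The epithelial to mesenchymal transition is the change by which polarised, adherent epithelial cells lose their junctions and take on a motile, fibroblast-like form. A small set of DNA-binding repressors can drive it by shutting down the E-cadherin gene. SNAI1 (Snail) is a zinc finger protein, ZEB1 has clusters of zinc fingers at both ends, and TWIST1 is a basic helix-loop-helix protein that pairs with E proteins such as E47. All of them act through E-box sites in DNA. KLF8 is a Krüppel-like zinc finger protein that binds GC-rich sites and can repress E-cadherin. GATA6 is a zinc finger factor of endoderm and heart development that has been tied to loss of epithelial features in some cells.

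Each of the 3 arrays set amplified RNA of E47 cells against control RNA, with a dye for each. On the array of extraction 1 the E47 RNA carried Cy5. Extraction 2 was hybridised as a dye swap, with E47 RNA in Cy3 on 1 array and in Cy5 on another. The arrays are called here extraction 1, the Cy3 array and the Cy5 array of extraction 2, and values are given in that order. They held 25537, 25282 and 24771 spots with a value. The deposited values are log ratios, read as log2 of E47 over control. The labels list E47 cells as the first channel of each array, which makes that direction likely, though no source states it. Read the other way, each rise below would be a fall. The log base is unstated as well, and with natural logarithms the folds would be larger, for instance 4.72 in place of 2.93 for ZEB1. The array values correlated positively over all spots, also across the dye swap, so no sign was turned. Between the 2 arrays of the dye swap r was 0.65. It was 0.76 between extraction 1 and the Cy5 array of extraction 2, and 0.58 between extraction 1 and the Cy3 array. Extraction 1 had no swap, so a dye effect would not fully cancel in the means. A ratio gives no level, so these data do not show how abundant any of the 5 transcripts was. With 3 arrays, the precision of all values is limited.

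The 5 genes split by direction. ZEB1 and TWIST1 rose in E47 cells and KLF8 and GATA6 fell, each at an adjusted p under 0.05 in limma, while SNAI1 lay below 0 on every array and did not pass. The rises were 2.93-fold for ZEB1 and 2.36-fold for TWIST1. The falls were smaller, at 1.71-fold for KLF8 and 1.66-fold for GATA6. Of the 5 genes, 4 passed the test, 2 in each direction. Over all 5508 named genes tested, 9.19% passed, 5.34% higher and 3.85% lower. All 5 genes had the same sign on the 3 arrays, as did 63.3% of all named genes, with 30.6% above 0 and 32.8% below 0 on every array.

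**Figure D1:**
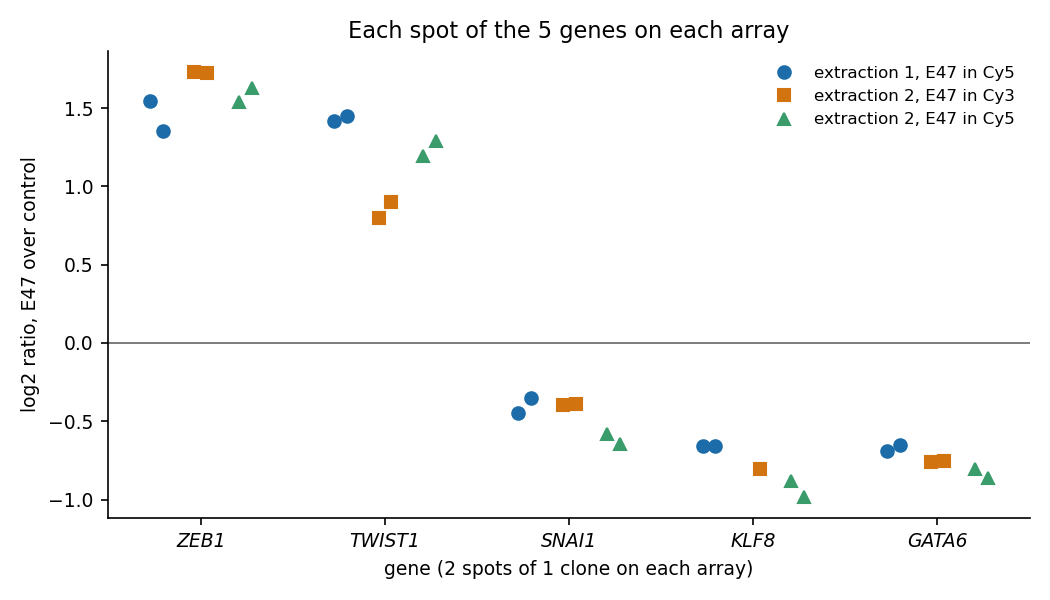
Log2 ratio of E47 over control for every spot of the 5 genes; each point is 1 spot, and colour and shape give the array. The spots of ZEB1 and TWIST1 lie between 0.80 and 1.73 and those of SNAI1, KLF8 and GATA6 between −0.98 and −0.35; KLF8 has only 1 spot with a value on the Cy3 array.

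ZEB1, which represses E-cadherin and other epithelial genes and is itself held down by the miR-200 family in epithelial cells, had the highest ratio of the 5. Its spots read 1.54 and 1.36 on extraction 1, 1.73 and 1.72 on the Cy3 array, and 1.54 and 1.63 on the Cy5 array of extraction 2. All 6 readings lay above the 2-fold line at a log2 ratio of 1. The mean log2 ratio was 1.55 ± 0.14 (SD, n = 2 extractions), with a moderated standard error of 0.10, a 95% interval of 1.27 to 1.83 and an adjusted p of 0.0197 in limma. ZEB1 ranked 32nd highest of 5508 named genes by its mean, and 70th, 22nd and 36th on the single arrays. It was the only one of the 5 with at least 2-fold change in the same direction on all 3 arrays, as 2.21% of all named genes had. Between the dyes of extraction 2 its ratio differed by 0.14, and 43.2% of named genes had a smaller difference. The 2 spots on extraction 1 differed by 0.19, and 89.2% of duplicate spot pairs on that array differed by less.

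TWIST1, a helix-loop-helix factor of mesoderm and neural crest, was also higher on every array but less evenly. Its spots read 1.42 and 1.45 on extraction 1, 0.80 and 0.90 on the Cy3 array, and 1.19 and 1.29 on the Cy5 array of extraction 2. The readings with E47 in Cy5 were thus all above those with E47 in Cy3. The mean was 1.24 ± 0.28 (SD, n = 2 extractions), with a moderated standard error of 0.13, a 95% interval of 0.87 to 1.62 and an adjusted p of 0.0283 in limma. TWIST1 ranked 83rd highest by its mean and 71st, 221st and 81st on the single arrays. In the dye swap the Cy3 array gave 0.85 and the Cy5 array 1.24 for the same RNA, and 86.0% of named genes had a smaller difference between these arrays. The SD between extractions was larger than that of 89.4% of named genes. On extraction 1, ZEB1 and TWIST1 had nearly the same ratio, 1.45 and 1.44, and on both arrays of extraction 2 ZEB1 stood above TWIST1. This difference was not tested.

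SNAI1, a repressor that can silence E-cadherin in epithelial cells, was not higher in these E47 cells. Its spots read −0.45 and −0.35 on extraction 1, −0.39 and −0.39 on the Cy3 array, and −0.58 and −0.64 on the Cy5 array of extraction 2. All 6 were below 0, and the mean of −0.45 ± 0.07 (SD, n = 2 extractions) is a ratio 1.37-fold lower. The moderated standard error was 0.09 and the 95% interval, without correction for the number of genes, ran from −0.70 to −0.20. The adjusted p of 0.0696 in limma missed the threshold; the unadjusted p was 0.00813, and the largest unadjusted p that passed was 0.00379. SNAI1 ranked 550th lowest by its mean, which places 9.97% of named genes below it. Its 3 arrays ran from −0.61 to −0.39.

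KLF8 fell. Its first spot read −0.66 on extraction 1 and −0.88 on the Cy5 array, and had no value on the Cy3 array. Its second spot read −0.66, −0.80 and −0.98, and only this spot entered the test. The mean was −0.78 ± 0.16 (SD, n = 2 extractions), with a moderated standard error of 0.10, a 95% interval of −1.07 to −0.48 and an adjusted p of 0.0393 in limma. With incomplete spots of all genes kept, the mean of KLF8 was −0.76 and its adjusted p 0.0502 in limma. That setting also adds features to the test. GATA6, read by the same spots in both settings, went from an adjusted p of 0.0341 to 0.0454. The change for KLF8 can thus not be put down to its spot alone. KLF8 ranked 208th lowest of the named genes by its mean and 398th, 118th and 138th lowest on the single arrays.

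GATA6 fell by a similar amount and had the narrowest range over arrays of the 5. Its spots read −0.69 and −0.65 on extraction 1, −0.76 and −0.75 on the Cy3 array, and −0.80 and −0.86 on the Cy5 array of extraction 2. The mean was −0.73 ± 0.09 (SD, n = 2 extractions), with a moderated standard error of 0.09, a 95% interval of −0.99 to −0.48 and an adjusted p of 0.0341 in limma. The dyes of extraction 2 differed by 0.08, and 23.9% of named genes had a smaller difference. GATA6 ranked 231st lowest by its mean. The array values of KLF8 and GATA6 overlapped, from −0.98 to −0.66 and from −0.83 to −0.67, so their order is within their spread. Neither overlapped the range of SNAI1.

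**Figure D2:**
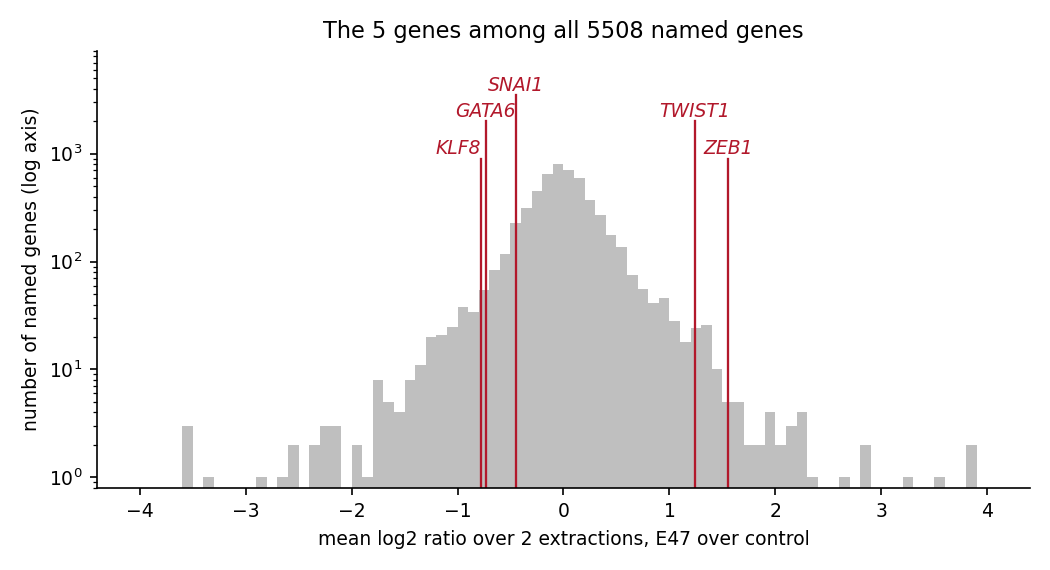
Histogram of the mean log2 ratio of 5508 named genes, with a log axis for the number of genes, and red lines at the 5 genes. ZEB1 and TWIST1, at 1.55 and 1.24, stand far out on the upper side, KLF8 and GATA6, at −0.78 and −0.73, lie closer in on the lower side, and SNAI1 at −0.45 is nearest to the centre.

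The calls depended on the arrays used, in the 5 genes as in all genes. Without the Cy5 array of extraction 2, ZEB1 alone of the 5 passed, at an adjusted p of 0.0438 in limma, and 1.98% of all named genes passed. TWIST1, KLF8 and GATA6 then had adjusted p-values of 0.0821, 0.0826 and 0.0819. Without the Cy3 array the same 4 genes passed as with all arrays, against 16.7% of all named genes. When the arrays were centred and scaled to one spread, ZEB1 and TWIST1 passed and KLF8 and GATA6 did not, at 0.0653 and 0.0579, with 8.44% of named genes passing. With quantile normalization KLF8 alone of the 4 lost its call, at 0.0544, with 11.9% passing. The direction of each of the 5 genes was the same under every alternative run. Each had the same sign on all 3 arrays, so leaving out an array could not change it.

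**Figure D3:**
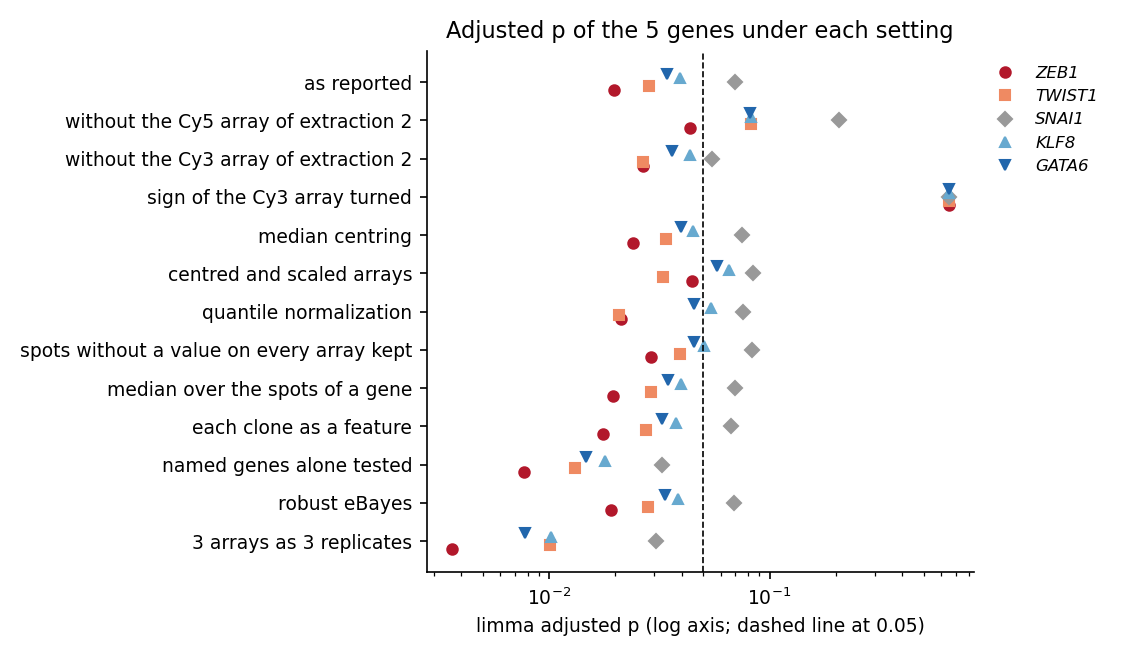
Adjusted p of each of the 5 genes in limma, on a log axis, under the reported setting and 12 alternatives that allow a test; the dashed line marks 0.05. ZEB1 stays left of the line in all but the setting that turns the sign of the Cy3 array, TWIST1, KLF8 and GATA6 cross it without the Cy5 array of extraction 2, and SNAI1 lies left of it with named genes alone or with 3 arrays counted as 3 replicates.

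Other factors of the same kind were read beside the 5 genes. Of 24 genes in a list of transcription factors of the epithelial to mesenchymal transition, 11 were annotated on the array and 9 had a spot with a value on all 3 arrays. Of these 9, 3 rose, 2 fell and 4 did not pass, with a median log2 ratio of −0.29 against −0.02 for all named genes. The share called was 55.6%, against 9.19% of all named genes. The 5 genes themselves are in this list and make up 4 of its 5 calls. Of the other 4 measured, 1 passed. It was TCF4, an E protein related to E47, at 1.66 ± 0.28 (SD, n = 2 extractions) with an adjusted p of 0.0211 in limma. Its 2 clones were unequal, one reading 3.13, 2.38 and 2.67 on the arrays and the other 0.59, 0.44 and 0.34. The 4 that did not pass were SNAI1, SOX9 at −0.48, TBXT at 0.31 and TCF3 at −0.29; SOX9, TBXT and TCF3 were chosen after their values were seen. Without the Cy5 array of extraction 2 the list had 2 genes higher and none lower, and with scaled arrays 3 higher and none lower. In these settings 1.98% and 8.44% of all named genes passed.

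SNAI2 (Slug), the close relative of SNAI1 and another E-box repressor of E-cadherin, lacked a value on the Cy3 array, which kept it out of the test. It was chosen after its values were seen. The 2 spots of its clone read 2.59 and 2.26 on extraction 1 and 1.94 and 2.06 on the Cy5 array of extraction 2. All 4 readings were above every reading of the 5 genes. When spots lacking a value on some array were kept, the mean of SNAI2 was 2.21 ± 0.14 (moderated standard error, n = 2 extractions) with an adjusted p of 0.0290 in limma, and 6.34% of 5759 named genes passed. In that fit extraction 2 is represented for SNAI2 by a single array, and both of its arrays carried E47 in Cy5, so a dye effect cannot be told apart from E47. The Snail family members thus had ratios of opposite sign on both Cy5 arrays, −0.40 and −0.61 for SNAI1 against 2.43 and 1.999 for SNAI2. The difference was not tested.

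Among KLF and SP factors, zinc finger proteins that bind GC-rich sites, 9 of 25 were measured, and 2 fell, none rose and 7 did not pass. The share called was 22.2%, against 9.19% of all named genes. The 2 called were KLF4 and KLF8, and KLF8 is itself among the 5 genes. Without adjustment 6 of the 9 had a limma p under 0.05, 2 of them higher, against 1963 of all 5508 named genes. KLF4, which supports epithelial differentiation, read −1.37, −0.94 and −0.92 on the arrays, with a mean of −1.15 ± 0.31 (SD, n = 2 extractions) and an adjusted p of 0.0349 in limma. KLF4, like KLF8, lost its call without the Cy5 array of extraction 2, at 0.0630. It lay below KLF8 on extraction 1 and on the Cy3 array, and the median of the list was −0.17. In the GATA list, GATA6 was the only gene of 4 measured that passed, 25% against 9.19% of all named genes. GATA2 had a clone at 0.22, 0.22 and 0.13. Another GATA2 clone read −4.07 on extraction 1, −0.11 on the Cy3 array and nothing on the Cy5 array. GATA3 and GATA4 had values on the Cy3 array alone, at −1.14 and 0.11. These GATA2, GATA3 and GATA4 values were chosen after they were seen. Since the clones are human and the RNA is canine, signals of relatives within a gene family cannot be fully separated. This holds for KLF8 and GATA6, and likewise for ZEB1, TWIST1, SNAI1 and SNAI2.

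**Figure D4:**
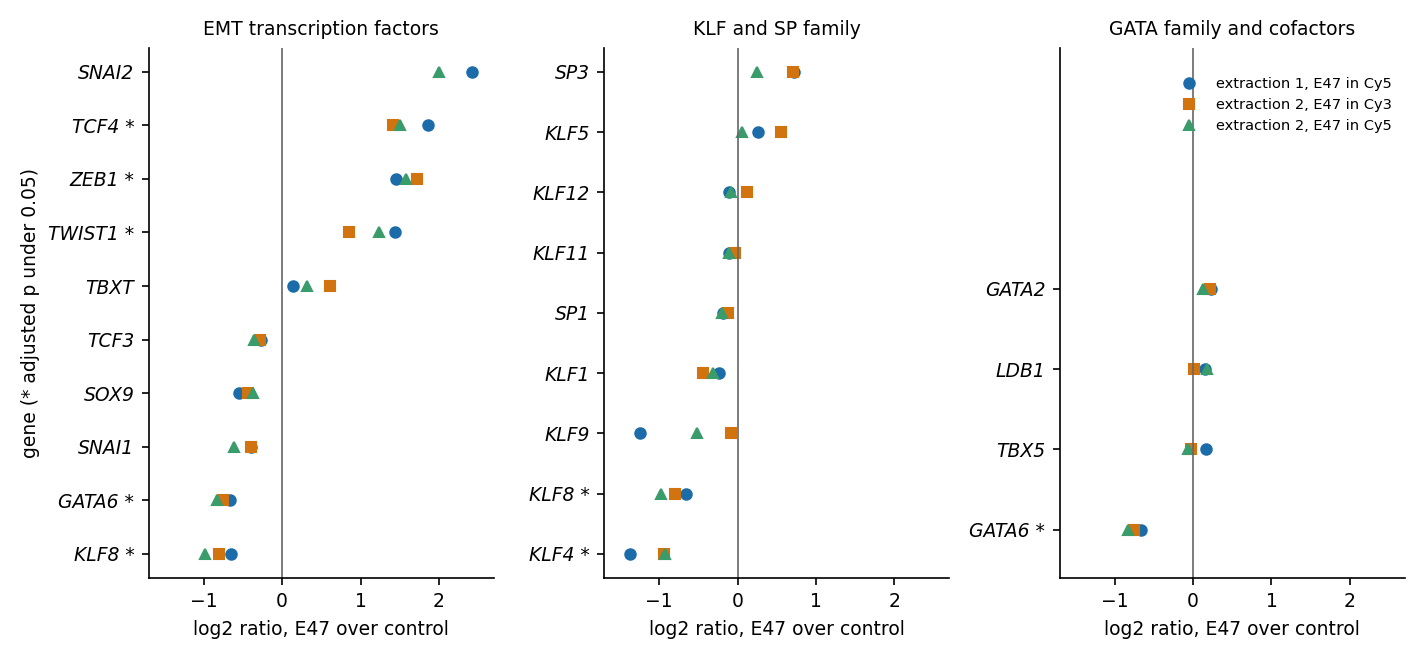
Log2 ratio of E47 over control on each array for the measured genes of 3 lists, sorted by mean; a star marks an adjusted p under 0.05. SNAI2, untested for want of a value on the Cy3 array, is drawn from its 2 Cy5 arrays at 2.43 and 1.999, above all others, and KLF8 and GATA6 sit at or near the lower end of their families.

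A list of E proteins, their ID inhibitors and relatives had 13 measured helix-loop-helix genes. Of these, 6 rose, none fell and 7 did not pass, with a median of 0.28. The share called was 46.2%, against 9.19% of all named genes, with 5.34% higher. Without adjustment 9 had a limma p under 0.05, 7 of them higher, against 1963 of all 5508 named genes. The 6 were TCF4, the inhibitors ID1, ID2, ID3 and ID4, and BHLHE40, so TCF4 was the only E protein among them. The inhibitors ID1 and ID4, which bind E proteins and keep them from DNA, were at 1.28 ± 0.10 and 1.23 ± 0.39 (SD, n = 2 extractions), with adjusted p-values of 0.0201 and 0.0405 in limma. A second ID1 clone read −3.31 on extraction 1 and 0.92 on the Cy3 array, and with it ID1 had a mean of 0.11 and an adjusted p of 0.913. TCF3 and TCF12, the other E protein genes, were at −0.29 and 0.08 and did not pass; both were chosen after their values were seen. Without the Cy5 array of extraction 2, 2 of the 13 rose, where 1.98% of all named genes passed.

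Of 19 measured corepressors and chromatin proteins that such repressors can recruit, BMI1 rose and RCOR1 fell. That share, 10.5%, is near the 9.19% of all named genes, and the median was −0.07. BMI1, a Polycomb protein reported as a target and partner of TWIST1, read 0.92, 0.89 and 0.65 and had a mean of 0.85 ± 0.11 (SD, n = 2 extractions) with an adjusted p of 0.0292 in limma. RCOR1, the CoREST scaffold that binds the demethylase LSD1, was at −0.78 ± 0.15 (SD, n = 2 extractions) with an adjusted p of 0.0369 in limma. Neither passed without the Cy5 array of extraction 2, where their adjusted p-values were 0.0572 and 0.0808. RCOR1 also lost its call with scaled arrays, at 0.0623, and with quantile normalization, at 0.0518. Of 18 measured genes that set the stability or activity of SNAI1, among them GSK3B, none passed in limma, and the median was −0.10. An unadjusted limma p under 0.05 was found for 7 of the 18, against 1963 of all 5508 named genes. The largest sizes there were CSNK1E, a casein kinase, at −1.44 and the kinase SRC at −0.77, with adjusted p-values of 0.171 and 0.0967. CSNK1E read −2.47 on extraction 1 and −0.19 and −0.61 on the arrays of extraction 2.

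A list of TGF-beta and other signalling genes held some known to induce these factors, but not all 26 measured are inducers. In this list 4 genes rose, none fell and 22 did not pass, with a median of 0.22. The share called was 15.4%, against 9.19% of all named genes. ACVR1, a receptor of BMP signals, was at 1.00 ± 0.20 (SD, n = 2 extractions), HIF1A, the hypoxia factor that can activate TWIST1, at 0.93 ± 0.0027, and SMAD2, a transducer of TGF-beta signals, at 0.71 ± 0.17. Their adjusted p-values in limma were 0.0307, 0.0241 and 0.0461. Without adjustment 15 of the 26 had a limma p under 0.05, 12 of them higher, against 1963 of all 5508 named genes. None of the 26 passed without the Cy5 array of extraction 2, where 1.98% of all named genes did. With median centring 2 rose, where 8.42% of all named genes passed, and SMAD2 lost its call at 0.0524.

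A list of epithelial genes held some that ZEB, Snail or Twist proteins are known to repress. Of 17 measured, 10 fell, none rose and 7 did not pass, with a median of −0.92. The share called was 58.8%, against 9.19% of all named genes, with 3.85% lower. An unadjusted limma p under 0.05 was found for 13, 1 of them higher, against 1963 of all 5508 named genes. CDH1, the E-cadherin gene, was at −3.59 ± 0.09 (SD, n = 2 extractions), the keratin gene KRT19 at −3.54 ± 0.45 and EPCAM at −2.54 ± 0.43, with adjusted p-values in limma between 0.0194 and 0.0201. A further CDH1 clone, with no value on the Cy3 array, read 0.23 and 0.19. Of the 17, 4 fell without the Cy5 array of extraction 2, where 1.98% of all named genes passed. In the list of epithelial transcription and splicing factors, KLF4 fell and the other 5 of 6 measured did not pass, with a median of −0.21 and 3 genes at an unadjusted limma p under 0.05. The share called there was 16.7%, against 9.19% of all named genes. Of 21 measured mesenchymal genes, 8 rose, 2 fell and 11 did not pass, with a median of 0.15. The share called was 47.6%, against 9.19% of all named genes. The 2 that fell were MMP14 at −0.99 and ENG at −0.94, both named after their values were seen. SPARC, a secreted matrix glycoprotein, was at 2.85 ± 0.05 (SD, n = 2 extractions), fibronectin FN1 at 2.29 ± 0.20 and the actin-binding CALD1 at 2.19 ± 0.34. Of the 21, 5 rose and none fell without the Cy5 array of extraction 2, where 1.98% of all named genes passed. These lists were drawn up with earlier results of these data known, so their counts are a description.

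Markers of cell type were read in the same ratios. Of 8 epithelial and kidney markers 5 were measured, and CDH1, EPCAM and KRT8 fell while CDH16 and PAX8, markers of kidney epithelium, were at −0.14 and −0.22 and did not pass. Of 8 mesenchymal markers 5 were measured, and SPARC, FN1 and COL1A2 rose while THY1 and ACTA2, typical of fibroblasts and myofibroblasts, were at 0.02 and −0.11 and did not pass. Over all named genes, 3.85% passed lower and 5.34% higher. The rise of COL1A2 is a mean over 2 clones of opposite sign. Over their spots with a value, one read 1.83, 1.13 and 1.29 and the other −1.48, −0.39 and −0.58. In a wider list of kidney epithelial genes, 1 of 9 measured rose and none fell, 11.1% against 9.19% of all named genes. The gene was ATP1B1, a sodium pump subunit, at 0.87. Its call was lost with scaled arrays and without the Cy5 array of extraction 2. In RNA of whole cultures, fewer cells of a type and less RNA per cell cannot be told apart, and the part of cell composition in the ratios of the 5 genes was not tested.

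**Figure D5:**
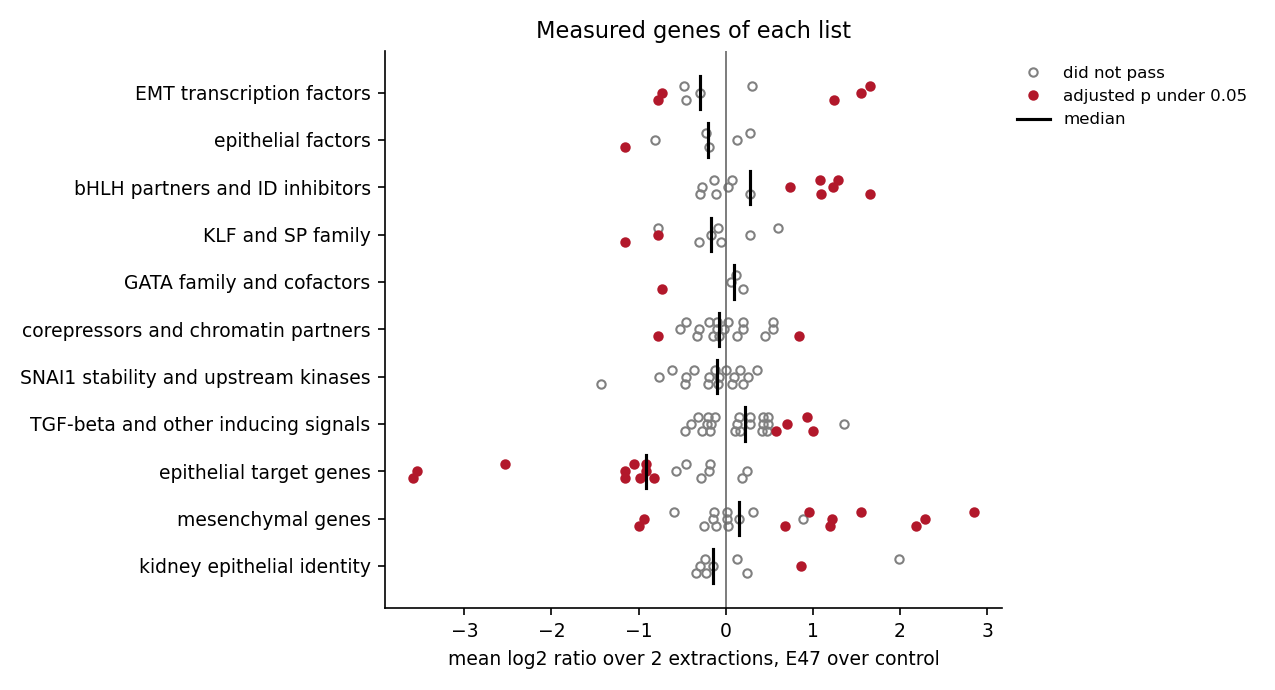
Mean log2 ratio over 2 extractions of each measured gene in 11 lists; filled points had an adjusted p under 0.05 in limma, open points did not, and black bars are medians. The epithelial target genes have the lowest median, −0.92, and the bHLH partners and ID inhibitors the highest, 0.28.

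Likeness to the 5 genes was measured as the Euclidean distance over the log2 ratios of the 3 arrays, so it describes similar ratios in these arrays and nothing else. The 3 named genes nearest to ZEB1 were S100A4, a calcium-binding protein of motile cells, and CEP55 and ASPM, proteins of cell division, at distances from 0.12 to 0.23. Only 23 named genes lay within 0.5 of ZEB1. Nearest to TWIST1 were ITGAV, an integrin subunit, TMEFF1 and TPBG, at 0.06 to 0.11, with 37 genes within 0.5. ITGAV shared the lower value on the Cy3 array, at 1.39, 0.83 and 1.26. KLF8 was nearest to RCOR1, to CTNND1, the catenin that binds the E-cadherin tail, and to the kinase MINK1, at 0.04 to 0.09, with 127 genes within 0.5. GATA6 was nearest to the ephrin gene EFNB1, to MRPS30 and to STYXL1, at 0.02 to 0.08, with 192 genes within 0.5. SNAI1 had 883 genes within 0.5, the most of the 5, and its nearest were PDE4B, IRF2BP2 and DVL3, none of which passed the test.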

How the data were processed

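Each array had a column of log2 ratios deposited by the authors. No source used here states how these were background-corrected and normalized, or their log base and direction. Base 10 cannot hold, because the largest value, 7.80, exceeds 4.82, the log10 of the largest signal a scanner file can store. No intensities were used, so signal over background is unknown and no dim spots were removed. Names came from the platform annotation; all 5 symbols occur among RefSeq's dog genes (UU_Cfam_GSD_1.0), used for names only. The 23275 spots measured on each of the 3 arrays were averaged per gene and array, giving 5508 named genes; spots with no or several symbols were 8500 further features. The arrays of extraction 2 were averaged, leaving 2 replicates and 1 residual degree of freedom. limma 3.58.1 (R 4.3.3; lmFit, eBayes) tested whether the ratio of each of 14008 features differed from 0, 2-sided, adjusted by Benjamini-Hochberg, threshold 0.05. Control RNA served as the common reference, so its own spread is left out. Figures used matplotlib 3.10.9.

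The 5 genes, the 11 gene lists and the tests were chosen with earlier results of these data known. Named genes are the 5, up to 3 of each list that passed, by size (or else the 2 largest), and the 3 nearest to each of the 5. Alternatives changed replicates, dyes, normalization, spots, features tested, eBayes and threshold.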

Additional observations from a re-analysis of the deposited data

How the results depend on the processing

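The 506 named genes that passed became 109 without the Cy5 array of extraction 2, 919 without its Cy3 array, 1175 with named genes alone tested, 1008 with 3 arrays as 3 replicates, and 1244 at an adjusted p under 0.1. With the sign of the Cy3 array turned, 0 passed in limma and 166 had an unadjusted p under 0.05; the log2 ratios were then 0.69 for ZEB1, 0.82 for TWIST1, −0.25 for SNAI1, −0.37 for KLF8 and −0.35 for GATA6, the 4 calls were lost, and the turned array opposes the positive correlation between columns. Without the Cy5 array of extraction 2, TWIST1 was at 1.14, KLF8 at −0.73 and GATA6 at −0.71, and these lost their calls. KLF8 also lost its call at −0.76 with scaled arrays, with quantile normalization and with incomplete spots kept, and GATA6 at −0.72 with scaled arrays. SNAI1 passed at −0.45 with named genes alone tested, at an adjusted p of 0.0324, and at −0.47 with 3 arrays as 3 replicates, at 0.0306; over its alternatives, sign turning aside, the adjusted p ran from 0.0306 to 0.207. The log2 ratios from a single extraction, which allow no test, ran from 1.45 to 1.65 for ZEB1, 1.05 to 1.44 for TWIST1, −0.50 to −0.40 for SNAI1, −0.89 to −0.66 for KLF8 and −0.79 to −0.67 for GATA6, and gave no count of calls. No paired analysis was possible because there is 1 group. Without signal intensities, how signal over background limits these values is unknown.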
